A study of Mus musculus with 96 samples.

Results

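The cerebral cortex of female mice was compared between unrestricted feeding and intermittent fasting. The libraries were chosen by their labels alone, as every cortex library of a female mouse: mice 25 to 32 fed ad libitum (AL) and mice 33 to 40 on intermittent fasting (IF). They are 16 of the 96 RNA-seq libraries of the series, 8 per diet. The series holds cortex, liver and skeletal muscle of male and female mice under both diets, with 8 mice in each combination. It asks how intermittent fasting, a regime in which food is withheld for a fixed part of every day, changes gene expression in these organs. For the male mice, which were C57BL/6, the design describes daily fasting for 16 hours and feeding for 8 hours over 4 months. Strain, age, length of the diet, fasting hours, time of day at sampling and hours since the last meal of the female mice are not given in the sources used here, so AL and IF stand below only for the diet labels.

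The cortex runs mainly on glucose, which crosses the endothelium and is passed on to neurons and glia through dedicated transporters, and it can burn ketone bodies that the liver releases in fasting. Fasting and the timing of meals also reach the brain through glucocorticoid hormone and through the circadian clock, a loop in which the activators Clock and Arntl drive the Per and Cry repressors. Immediate early genes, switched on within minutes by synaptic activity, report how active cortical neurons were shortly before the tissue was taken.

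Each library held between 31232000 and 40235300 counts assigned to genes, with a median of 33732700 in AL and 36764500 in IF. The labelled sex fitted the data: Xist was read at 192 to 320.2 CPM (counts scaled to library size) in all 16 libraries, while of 4 genes on the Y chromosome Kdm5d and Uty had no count and Ddx3y and Eif2s3y had at most 0.0473 and 0.0236 CPM. Cortical neuron markers were high throughout. Camk2a, a kinase of excitatory synapses, averaged 2823 CPM, and the summed level of 8 excitatory markers lay between 6247 and 8409 CPM. Per transcript length, the genes read most were mitochondrial: mt-Co1 at 38079.5 TPM (counts also scaled to gene length), mt-Cytb at 30376 and mt-Nd1 at 29829.5. Of nuclear genes, Rplp1, a ribosomal stalk protein, averaged 5403 TPM in AL and 4872 in IF, and Nrgn, a calmodulin-binding protein of dendrites, averaged 4953 and 4415.

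Some libraries stood apart in their tissue content. The 6 choroid plexus markers summed to 4465 CPM in IF mouse 36 and 1582 in IF mouse 34, against at most 129 in any other mouse. Ttr, the thyroxine carrier that the choroid plexus makes in bulk, supplied most of it, with 4338 CPM in mouse 36 and 1522 in mouse 34. In IF mouse 36 the hippocampal markers summed to 135 CPM, against at most 53.4 elsewhere. IF mouse 33 had 93.7 CPM of olfactory bulb markers, against at most 24.6 in the others. The 6 striatal markers summed to 569 CPM in AL mouse 26, 411 in IF mouse 35 and 407 in AL mouse 31. AL mouse 26 was also the AL library farthest from its diet mean, with a mean squared distance of 0.165 on the log2 scale against a median of 0.0906, and had the lowest mitochondrial share, 5.83% of counts. Some results are therefore given with and without mouse 26 or mice 34 and 36.

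Few genes separated the diets. Of 18403 genes tested, 2 passed (0.0109%), both lower in IF: mt-Atp6, a mitochondrial subunit of ATP synthase, and the processed pseudogene Gm11263. The test was edgeR's quasi-likelihood test with Benjamini-Hochberg adjustment, threshold 0.05. At an unadjusted p under 0.05 stood 2069 genes (11.2%), of which 1197 were higher in IF (6.5%) and 872 lower (4.74%). DESeq2 called 64 of the 17594 genes to which it gave an adjusted p (0.364%), 26 higher and 38 lower, and these include both genes above. Changes were small: the median size of a log2 fold change (IF over AL) was 0.10, and 424 genes differed by at least 1.5-fold, 183 of them with a mean of at least 1 CPM in the higher diet. The count rests on single mice. It was 254 without AL mouse 26, 2 without AL mouse 32, 1 without AL mouse 27, AL mouse 29 or IF mouse 36, and 0 without AL mouse 25, 28, 30 or 31 or without IF mouse 33, 34, 35, 37, 38, 39 or 40; over these 16 fits, 1483 to 3826 genes had an unadjusted p under 0.05.

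mt-Atp6 had the largest fall. It lies in mitochondrial DNA at bases 7927 to 8607 (genome build GRCm39) and encodes part of the proton channel of ATP synthase. Its level was 137 to 773 CPM in AL, with a median of 287, and 35.8 to 109 CPM in IF, with a median of 57.0. Every IF mouse was below every AL mouse. mt-Atp6 fell by 2.43 on the log2 scale (SE 0.350, edgeR adjusted p = 0.0434). With single mice left out the log2 fold change stayed between -2.60 and -2.12, the adjusted p ran from 0.0176 to 0.160, and the gene was called in 4 of the 16 fits.

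**Figure D1:**
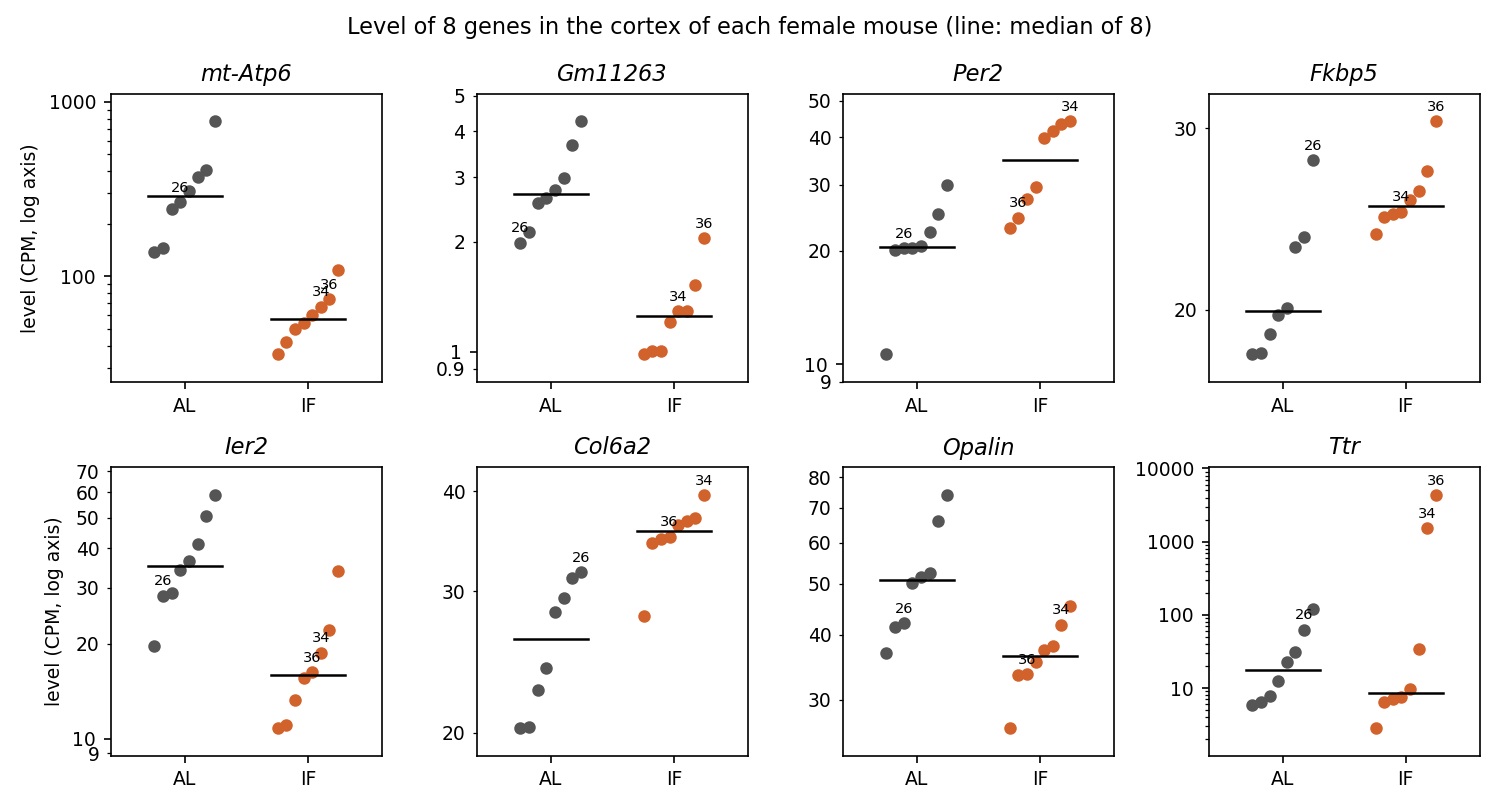
Level in CPM (log axis) of 8 genes in each of the 8 AL and 8 IF female mice, with the median of each diet as a line and mice 26, 34 and 36 numbered. mt-Atp6 ran from 137 to 773 CPM in AL and from 35.8 to 109 in IF, without overlap, whereas Ttr was high only in IF mice 34 and 36.

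mt-Atp6 lies in a stretch of mitochondrial DNA that the nucleus carries a copy of. Bases 6390 to 11042 of the mitochondrial genome align to chromosome 1, minus strand, at chr1:24650616-24655269, over 4654 columns with 2 mismatches and 1 gap, an identity of 99.9%. The annotation places 6 protein-coding mitochondrial genes wholly inside the stretch: mt-Co2 at log2 fold change -0.70, mt-Atp8 at -0.71, mt-Atp6 at -2.43, mt-Co3 at -1.02, mt-Nd3 at -0.31 and mt-Nd4l at -0.57. The value of mt-Nd4l leans on AL mouse 28, at 18.3 CPM against at most 12.6 in the other AL mice. Each of the 6 averaged between 14.6 and 852 TPM. The 7 protein-coding or ribosomal RNA genes outside it averaged 4201 to 30376 TPM and had log2 fold changes between -0.16 and 0.06. mt-Co1 and mt-Nd4, partly inside, stood at 0.02 and -0.21. Of the 13 mitochondrially encoded subunits, 1 passed the test, 11 had a negative log2 fold change and 5 were lower at an unadjusted p under 0.05, with a list median of -0.21. DESeq2 called mt-Atp6 and mt-Co3, and without AL mouse 26 both passed edgeR's test.

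**Figure D2:**
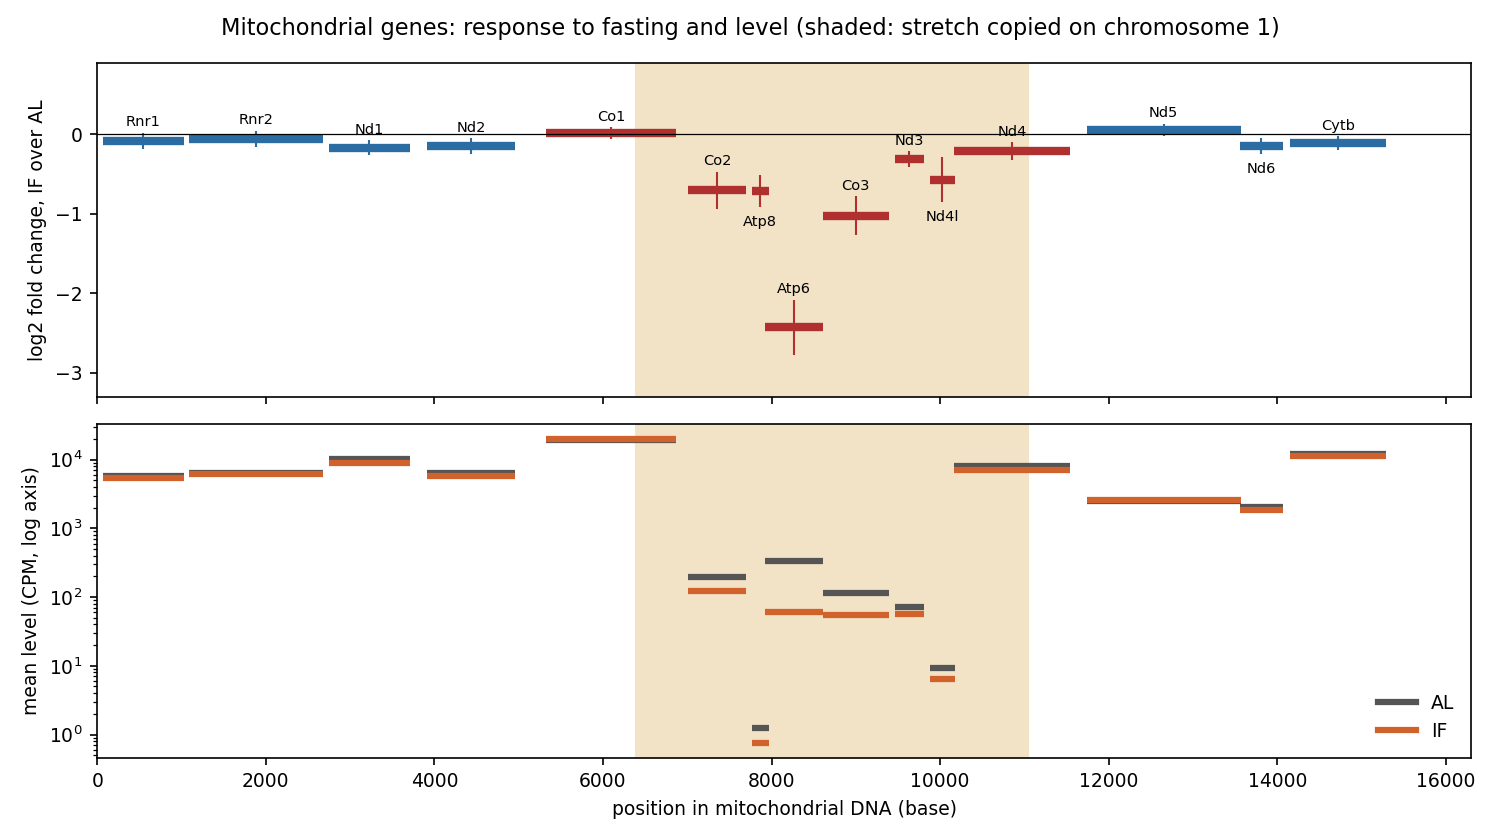
Mitochondrial genes along mitochondrial DNA, with the log2 fold change of IF over AL and its SE above. Below is the mean level in CPM (log axis) in 8 AL and 8 IF mice. The stretch with a copy on chromosome 1 is shaded, and genes wholly or partly in it are red. Wholly inside the stretch log2 fold changes ran from -2.43 to -0.31, outside it from -0.16 to 0.06. Partly inside, mt-Co1 was at 0.02 and mt-Nd4 at -0.21.

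The copy on chromosome 1 is annotated as a row of pseudogenes, and with all 16 mice these also had negative values. Of Gm28438, the copy of mt-Nd3, the value of -0.57 (SE 1.29) hung on single mice, and was 2.25 without AL mouse 27 and -2.88 without IF mouse 34. Gm10925, the copy of mt-Atp6, stood at -0.86 (SE 0.198, edgeR adjusted p = 0.209). Gm28437, the copy of mt-Co3, was at -1.21, with 606 CPM in AL mouse 25 and at most 138 in the other AL mice, Gm28661, the copy of mt-Co2, at -1.11, and Gm29216, which matches part of mt-Co1, at -0.53. Gm28439, which matches part of mt-Nd4, was at -0.21 and Gm10222, the copy of mt-Nd4l, at -0.37. Gm28438, Gm28439 and Gm10222 had an unadjusted p above 0.05, and the other copies had one under it. None of the 7 copies passed edgeR's test, and DESeq2 called Gm10925. Over the whole of mt-Atp6 the copy has the same bases, so a short read cannot be placed in either from its sequence, and how the counting treated such reads is not stated. With the counts of each copy added to its mitochondrial gene, mt-Atp6 was at -1.84 (SE 0.261, edgeR adjusted p = 0.0410) and mt-Co3 at -1.13 (adjusted p = 0.326). The copies and this sum were chosen after their values were seen. mt-Atp6 further shares bases with mt-Atp8 and mt-Co3, which its ends overlap.

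One of the 2 mismatches is T9461C, the mitochondrial base first, with positions counted from 1 at the start of the mitochondrial sequence. It falls in mt-Nd3, and the other, A6393T, in mt-Co1. The pair below shows how alike the sequences are around T9461C (MT:9431-9491 and chr1:24652168-24652228, minus strand), with the differing base in capitals.
mitochondrial DNA: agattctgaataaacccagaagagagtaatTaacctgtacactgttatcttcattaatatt
copy on chromosome 1: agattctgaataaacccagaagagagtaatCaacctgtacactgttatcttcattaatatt

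Gm11263 was the other gene that passed. It is a processed pseudogene, a reverse-copied transcript, at chr4:79245945-79246693, and its sequence is 98.1% identical to Rps6, a protein of the small ribosomal subunit. It was read at 1.98 to 4.26 CPM in AL, with a median of 2.70, and at 0.985 to 2.05 CPM in IF, with a median of 1.25. The ranges met only where IF mouse 36 exceeded AL mouse 26. Gm11263 fell by 1.15 (SE 0.184, edgeR adjusted p = 0.0434), and with single mice left out it was called in 3 of the 16 fits, at an adjusted p of 0.0094 to 0.160. Rps6 itself was at -0.11 (SE 0.0855).

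Pseudogenes of this kind made up most of the genes nearest to the threshold on the lower side. Besides the 2 genes above, the 10 with the lowest adjusted p on this side hold 8 processed pseudogenes. None of the 10 passed edgeR's test, whereas DESeq2 called every one of them. Rpl19-ps11 stood at -0.59 (AL 10.2 to 15.9 CPM, IF 6.81 to 10.5), Gm13394, a copy of Gapdh, at -0.89, Rps27a-ps2 at -1.01, and Gm9843, identical to part of the ribosomal protein gene Fau, at -0.72. Gm10036 and Gm10288, both copies of Rpl11, were at -0.87 and -0.73, Gm5559, another copy of Gapdh, at -0.50 and Gm13436, a copy of Rpl18, at -0.84. Their edgeR adjusted p lay between 0.188 and 0.195. Each was 99.3 to 100% identical to its most similar coding gene, and those coding genes had log2 fold changes of -0.37 to -0.12, with none passing. Of 623 processed pseudogenes tested, 61 were lower and 17 higher in IF at an unadjusted p under 0.05, with a median of -0.07, whereas 14881 coding genes split 652 lower to 1099 higher with a median of 0.01. Per mouse, processed pseudogenes held 0.299 to 0.374% of counts in AL (median 0.337) and 0.294 to 0.349% in IF (median 0.301), and this share did not pass (exact permutation p = 0.0831, Benjamini-Hochberg adjusted over 5 library measures 0.247). DESeq2 called 12 processed pseudogenes, every one lower. The shortest coding genes leaned the same way, with values given below, and the part of length in the result for pseudogenes was not tested. Reads shared with the coding gene make each of these values uncertain. The remaining genes of the 10 were Ado, an oxygen-sensing thiol dioxygenase, at -0.18 (AL 48.6 to 54.8 CPM, IF 43.3 to 46.9, without overlap), and the long noncoding RNA A230001M10Rik at -0.62.

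On the higher side no gene passed edgeR's test, and the lowest adjusted p was 0.188; at an unadjusted p under 0.05 stood the 1197 genes given above, and DESeq2 called 26. The 12 genes with the lowest adjusted p, 0.188 to 0.197, are given here. DESeq2 called all of these. Hcn3, a pacemaker channel subunit, was read at 17.9 to 25.03 CPM in AL (median 19.9) and 24.2 to 30.2 in IF (median 26.4). Only AL mouse 28 reached into the IF range, and its log2 fold change was 0.35 (SE 0.0710). Smad3, a transducer of TGF-beta signals, was at 35.9 to 60.3 CPM in AL (median 42.5) and 47.3 to 68.1 in IF (median 60.6), with a log2 fold change of 0.44 (SE 0.0913). The highest AL level of Smad3 was that of mouse 26. Also among the 12 were Myh9, a nonmuscle myosin heavy chain, at 0.42, Baiap2, an actin scaffold of the postsynapse, at 0.27, Gmip, a GTPase-activating protein, at 0.44, and Sgsm1, a modulator of Rab and Rap proteins, at 0.41. The others were the metalloprotease Adam8 (0.46), the collagen gene Col6a2 (0.44), the endoplasmic reticulum protein Pdia4 (0.28), the DNA-binding protein Banp (0.31), the ciliary gene Fbf1 (0.23) and Gm49405 (0.87). Gm49405, Banp, Myh9, Adam8 and Fbf1 overlap 2 or 3 other annotated genes each, and the strand setting of the counting is not stated.

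AL mouse 26 weighed most on this side. Without it, 254 of 18517 genes passed edgeR's test (1.37%), 202 higher in IF and 52 lower. All 254 had the same sign with the 16 mice together, where 240 of them had an unadjusted p under 0.05. The fits share every mouse but mouse 26, so this agreement was largely set in advance and is no independent support. Ptprf, a receptor tyrosine phosphatase of synapses, then stood at 0.48 (SE 0.0681, edgeR adjusted p = 0.0093), Smad3 at 0.52 (adjusted p = 0.0093), Klhl3, an adaptor of a ubiquitin ligase, at 0.36 (adjusted p = 0.0166), Baiap2 at 0.32 (adjusted p = 0.0172) and Piezo1, a mechanically gated channel, at 1.31 (adjusted p = 0.0172). Coding genes made up 217 of the 254, with 193 of these higher, and processed pseudogenes 16. In AL mouse 26 the striatal markers were highest of all mice (Ppp1r1b the most abundant, all 6 tested, none at 0). This mouse also had the lowest mitochondrial share, 5.83% of counts. Its median log2 level of short coding genes less that of long ones, -1.93, was the lowest of AL. The part of any of these in the result was not tested. The genes named in this paragraph were chosen after their values were seen.

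Separation without overlap was rare too. In 11 genes (0.0598%) all 8 IF mice lay on the same side of all 8 AL mice. Lower in IF were mt-Atp6, Gm10036, Ado, Gm13436, A330102I10Rik, Rps18-ps3, Ypel2 and Spata24, and higher were 3 coding genes, named because they are so few. Cars2, the cysteinyl-tRNA synthetase of mitochondria, ran from 8.68 to 11.2 CPM in AL and from 11.4 to 13.9 in IF, at a log2 fold change of 0.29 (SE 0.0686, edgeR adjusted p = 0.201). Atxn2, an RNA-binding protein, ran from 66.5 to 77.9 and from 78.1 to 83.1 CPM, at 0.15 (SE 0.0420). Fam207a ran from 43.7 to 53.9 and from 54.7 to 63.8 CPM, at 0.18 (SE 0.0521). These gaps were narrow, and of the 11 only mt-Atp6 passed edgeR's test.

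The direction of a coding gene's value went with its length. Over 14881 coding genes Spearman's rho between gene length in the deposited table and log2 fold change was 0.246, across genes, which are not independent replicates. The 1489 shortest (204 to 1758 bases) had a median of -0.10, with 26 genes higher and 149 lower at an unadjusted p under 0.05. The 1488 longest (9919 to 123179 bases) had a median of 0.03, with 136 higher and 37 lower. The median log2 level of short genes less that of long ones ran from -1.93 to -1.36 in AL, with a median of -1.50, and from -1.95 to -1.39 in IF, with a median of -1.75. IF mice were mostly lower, with wide overlap, and AL mouse 26 and IF mouse 33 were the lowest of their diets. Whether RNA quality differed between the libraries was not tested.

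Of 23 core clock genes tested, none passed edgeR's test, 13 had a positive log2 fold change, 9 were higher and 1 lower at an unadjusted p under 0.05, and DESeq2 called Per2. The list median was 0.09, beside 0.00 over all genes tested, of which 6.5% were higher at an unadjusted p under 0.05 and 9381 of 18403 had a positive value. Lower at that level were 4.74% of all genes tested, and 9022 had a negative value. These shares are the background for the counts of every list. Per2, a repressor of the clock, was read at 10.6 to 29.997 CPM in AL (median 20.5) and at 23.1 to 44.1 in IF (median 34.8). The ranges overlapped between the highest AL and the lowest IF mice, and AL mouse 29 lay far below the rest. Its log2 fold change was 0.69 (SE 0.182, edgeR adjusted p = 0.261; DESeq2 0.68, adjusted p = 0.0214). Cry1, the partner of the Per proteins, ran from 11.9 to 15.1 CPM in AL (median 12.96) and from 12.7 to 19.7 in IF (median 18.1), and had the lowest p of the list (0.34, SE 0.0919, edgeR adjusted p = 0.258). Other values were 0.34 for Bhlhe40, a repressor induced by light and activity, 0.23 for Dbp and 0.22 for Tef, activators of clock output, -0.19 for Rora, -0.12 for Arntl and -0.09 for Per1, and the lowest value of the list was -0.28. Without AL mouse 26, Tef passed edgeR's test. Here and in the lists that follow, members other than the one with the lowest p were picked as examples after their values were seen.

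Genes that glucocorticoid induces gave a mixed picture. None of 21 passed edgeR's test or was called by DESeq2, 16 were positive and 5 negative, and 3 were higher and 1 lower at an unadjusted p under 0.05, with a median of 0.07. Fkbp5, a co-chaperone that damps the glucocorticoid receptor, had the lowest p: 18.1 to 27.9 CPM in AL (median 19.9) against 23.7 to 30.5 in IF (median 25.2), at 0.29 (SE 0.0835, edgeR adjusted p = 0.286). Every AL mouse but mouse 26 was below every IF mouse. Zbtb16, a transcription factor, was at 5.22 to 27.5 CPM in AL (median 9.67) and 15.1 to 32.6 in IF (median 21.9), at 0.86 (SE 0.312). Plin4, a lipid droplet coat protein, was at 0.82 (SE 0.306), with 10.2 CPM in IF mouse 40 and at most 4.66 in the other IF mice. The lower member was Dusp1, also an immediate early gene, at -0.93, while Sgk1, a kinase, stood at 0.11, Tsc22d3 at 0.07, Arrdc2 at 0.01 and Ddit4 at -0.04. Without AL mouse 26, Fkbp5 and Zbtb16 passed edgeR's test.

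Of 20 immediate early genes tested, none passed edgeR's test, 12 were negative, 4 were lower and 1 higher at an unadjusted p under 0.05, and DESeq2 called Ier2. The median was -0.13, and it was -0.07 without AL mouse 26 and -0.21 without IF mice 34 and 36. Ier2, a nuclear protein of the early response, was read at 19.6 to 58.9 CPM in AL (median 35.2) and 10.8 to 33.95 in IF (median 15.9). All IF mice but mouse 33 were below all AL mice but mouse 29, and the log2 fold change was -1.07 (SE 0.256, edgeR adjusted p = 0.238; DESeq2 -1.08, adjusted p = 0.0203). Btg2, an antiproliferative factor, was at -0.94 (SE 0.337), Dusp1, a phosphatase of MAP kinases, at -0.93 (SE 0.301) and Junb, an AP-1 subunit, at -0.82 (SE 0.361). Mice differed widely within each diet. Arc, a regulator of synaptic strength, ran from 114 to 577 CPM in AL and from 58.1 to 581 in IF (-0.86, SE 0.452), and Fos from 7.85 to 69.8 and from 5.57 to 72.7 CPM (-0.66, SE 0.468). Homer1, a postsynaptic scaffold with a slower activity-driven transcript, had a positive value, 0.29.

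Chaperones of the endoplasmic reticulum had 5 of 19 members higher and none lower at an unadjusted p under 0.05, a median of 0.05, and none past edgeR's test, while DESeq2 called Pdia4. Pdia4, a disulfide isomerase, ran from 21.8 to 27.6 CPM in AL (median 25.3) and from 25.7 to 34.2 in IF (median 30.8), at 0.28 (SE 0.0631, edgeR adjusted p = 0.195). The ranges overlapped slightly. Hspa5, the main chaperone of this compartment, was at 0.20 (AL 141 to 171 CPM, IF 163 to 203), Hyou1 at 0.23, Pdia6 at 0.18 and the transcription factor Xbp1 at 0.13. Without AL mouse 26, Hspa5, Hyou1 and Pdia4 passed, and without IF mice 34 and 36 the list median was 0.02. Cytosolic heat shock and cold-inducible genes had no member past edgeR's test or DESeq2 and none at an unadjusted p under 0.05 out of 22 (median -0.06, lowest p Hspa1a at -0.15), and the ATF4 targets of the amino acid response had 1 of 19 lower at that level, Ddit3 at -0.11, with a median of -0.00 and no call by either tool.

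**Figure D3:**
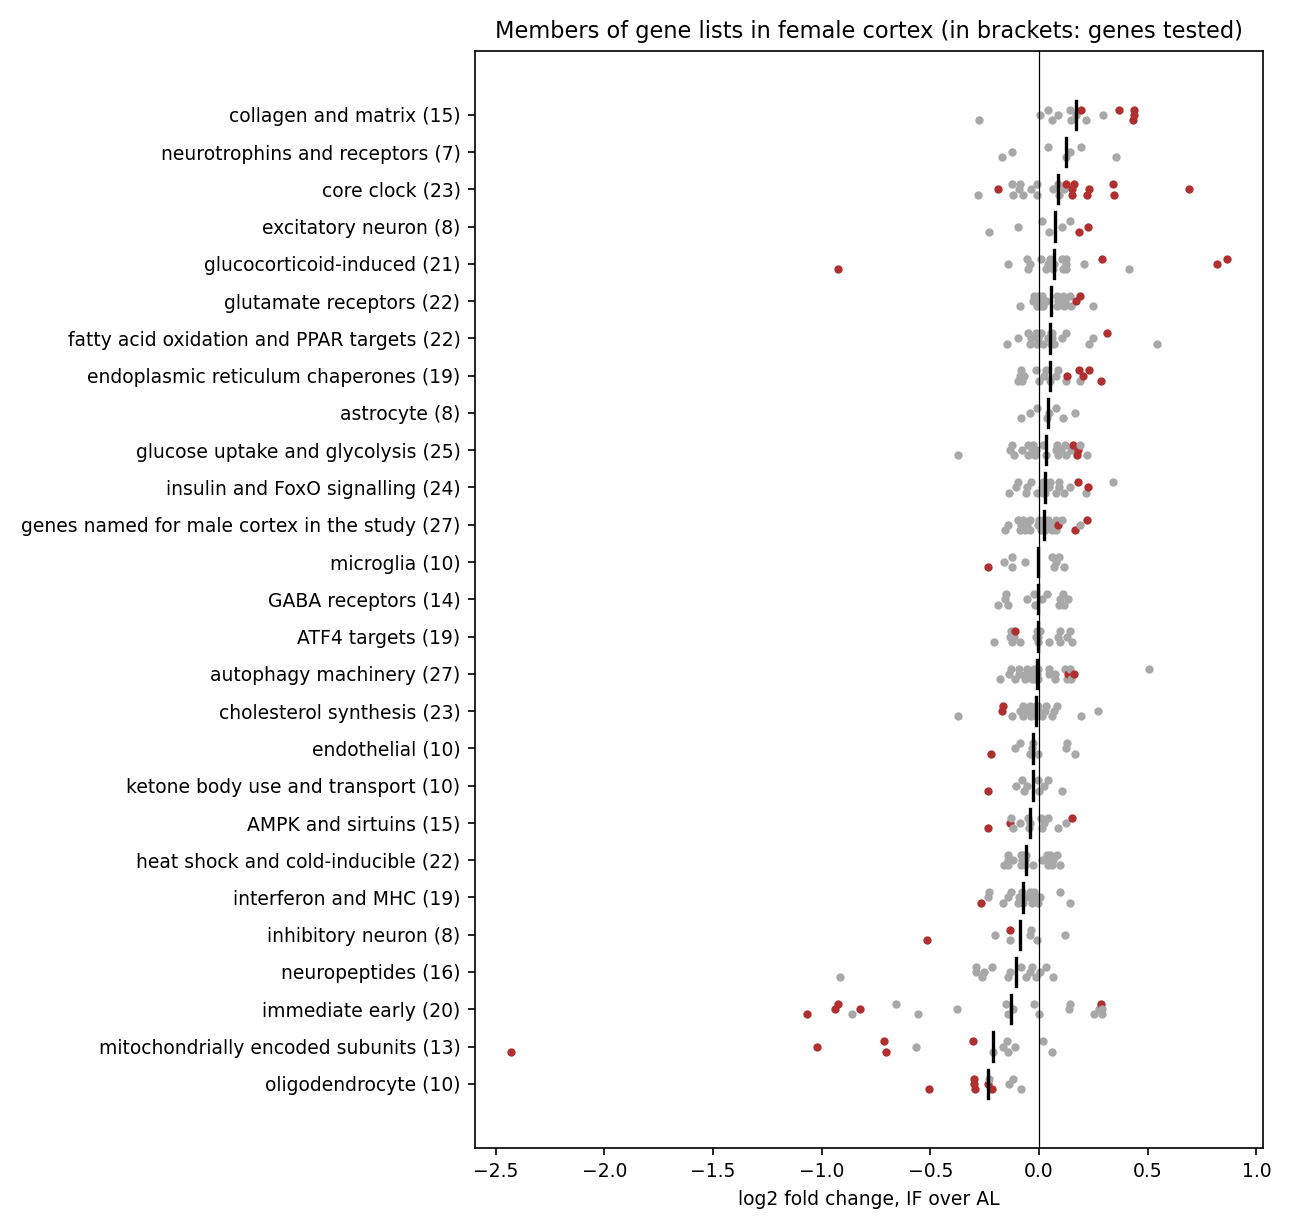
Log2 fold change of IF over AL in female cortex (8 mice per diet) for each tested member of 21 gene lists and 6 cell type marker lists, with the list median as a line and members at an unadjusted p under 0.05 in red. List medians ran from -0.23 for oligodendrocyte markers to 0.17 for collagen and matrix genes.

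Genes of fuel use lay close to zero, and edgeR and DESeq2 called none in the 7 lists of this paragraph. Ketone body use and transport had 1 of 10 lower at an unadjusted p under 0.05 and a median of -0.03. That member was Slc16a1, the monocarboxylate transporter of endothelium and glia, at 28.8 to 35.01 CPM in AL (median 31.2) and 21.6 to 30.7 in IF (median 27.9), with a log2 fold change of -0.23 (SE 0.0748, edgeR adjusted p = 0.337). Oxct1, which starts ketone body breakdown, was at 208 to 228 CPM in AL and 207 to 231 in IF, log2 fold change -0.00 (SE 0.0410). Fatty acid oxidation and PPAR targets had 1 of 22 higher, Ucp2, a carrier of the inner mitochondrial membrane, at 0.31, with a list median of 0.05. Ucp2 was highest in IF mouse 36 (65.3 CPM) and IF mouse 34 (48.6), and without this pair it stood at 0.09 and the list median at -0.01. Glucose uptake and glycolysis had 3 of 25 higher and a median of 0.03: Slc2a3, the neuronal glucose transporter (0.18), Slc2a1, the endothelial and glial one (0.17), and Pfkl, a phosphofructokinase (0.16). Insulin and FoxO signalling had 2 of 24 higher (median 0.03, lowest p Igf1r at 0.18), cholesterol synthesis 2 of 23 lower (median -0.02, lowest p Stard4 at -0.17), autophagy 2 of 27 higher (median -0.01, lowest p Ulk1 at 0.16), and AMPK and sirtuins 1 of 15 higher and 2 lower (median -0.04, lowest p Prkag2 at 0.15). Without AL mouse 26, Slc2a3 passed edgeR's test.

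Of receptors and transmitters of neurons, edgeR and DESeq2 called no member in the 4 lists that follow. Glutamate receptors had 16 of 22 positive and 2 higher at an unadjusted p under 0.05, with a median of 0.06 and the lowest p at Grik4, a kainate receptor subunit (0.19, SE 0.0782). GABA receptors were split 7 to 7 with none at that level (median -0.00). Neuropeptides had 13 of 16 negative and none at that level, with a median of -0.11. Cartpt, a peptide precursor, had the lowest p (-0.92, SE 0.443), with 6.09 to 56.2 CPM in AL and 5.24 to 14.2 in IF. AL mouse 25 alone held the 56.2 CPM, the next AL mouse 18.5, and without mouse 25 Cartpt was at -0.31. Neurotrophins and their receptors had 5 of 7 positive and none at that level (median 0.12, lowest p Ntrk3 at 0.14), and without IF mice 34 and 36, 2 of 7 were positive and the median was -0.03.

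Collagen and matrix genes had the highest median of the 21 lists, 0.17. None of 15 passed edgeR's test, 14 were positive, 5 were higher at an unadjusted p under 0.05 and DESeq2 called Col6a2. Col6a2, a chain of collagen VI, ran from 20.3 to 31.7 CPM in AL (median 26.2) and from 27.9 to 39.6 in IF (median 35.7), at 0.44 (SE 0.0967, edgeR adjusted p = 0.195). All IF mice but mouse 38 were above every AL mouse. Its partner Col6a1 was at 0.43, the basement membrane chains Col4a2 and Col4a1 at 0.37 and 0.19, and the laminin chain Lama1 at 0.43. Without IF mice 34 and 36, the pair with choroid plexus RNA, 8 of 15 were positive and the median was 0.05. Without AL mouse 26, Col4a2, Col6a1 and Col6a2 passed. Interferon and MHC genes had 16 of 19 negative, 1 lower at an unadjusted p under 0.05 and a median of -0.07, with no call by edgeR or DESeq2 and the lowest p at Ifitm3, an antiviral membrane protein (-0.27, SE 0.122).

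Among cell type markers, those of oligodendrocytes, the cells that make myelin, were negative without exception. All 10 had a negative log2 fold change, 6 were lower at an unadjusted p under 0.05, and the median was -0.23. Of all genes tested, 9022 of 18403 were negative and 4.74% were lower at that level. None passed edgeR's test, and DESeq2 called Opalin. Opalin, a myelin membrane protein, was read at 36.9 to 74.0 CPM in AL (median 50.9) and at 26.5 to 45.4 in IF (median 36.4), at -0.51 (SE 0.132, edgeR adjusted p = 0.255). The groups overlapped. Mag and Mog, myelin surface proteins, were both at -0.30, Cnp at -0.24 and Cldn11 at -0.23, while Mbp, the most abundant, was at -0.14. The summed level of the 10 ran from 6446 to 11021 CPM in AL (median 7496) and from 5255 to 8700.2 in IF (median 7308). In bulk tissue, fewer cells of a type and less RNA per cell cannot be told apart. Without IF mice 34 and 36 the median was -0.25, and without AL mouse 26 it was -0.24. Oligodendrocyte precursors had 1 of 5 higher at an unadjusted p under 0.05, Gpr17 at 0.41, 1 lower, and a median of 0.02.

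The other marker lists had no member called by edgeR or DESeq2. Inhibitory neurons had 7 of 8 negative and 2 lower at an unadjusted p under 0.05 (median -0.09), with the calcium buffer Pvalb at 97.7 to 260.0 CPM in AL (median 165), 90.5 to 161 in IF (median 120.2) and a log2 fold change of -0.52 (SE 0.167, edgeR adjusted p = 0.347). Without AL mouse 26, Pvalb passed. Excitatory neurons had 6 of 8 positive and 2 higher (median 0.07, Camk2a at 0.18, Cux2 at 0.23). Medians were 0.04 for astrocytes, -0.00 for microglia (1 of 10 lower, Aif1), -0.03 for endothelium (1 of 10 lower, Cldn5) and -0.03 for pericytes and smooth muscle. All 6 choroid plexus markers were higher at an unadjusted p under 0.05, with a median of 2.42, and without IF mice 34 and 36 1 of 6 was positive and the median was -0.47. Meningeal fibroblasts had a median of 0.16, and -0.26 without that pair of mice. Medians were -0.19 for ependymal cells (-0.47 without IF mice 34 and 36), -0.18 for erythrocytes, -0.40 for striatum (6 of 6 negative; -0.10 without AL mouse 26), 0.27 for hippocampus (-0.49 without IF mice 34 and 36), -0.05 for thalamus (1 of 5 higher, Prkcd) and 0.91 for olfactory bulb (1 of 4 higher, Tbx21), the last with IF mouse 33 far above the rest. Of the pituitary list 2 genes passed the filter on low counts (median 0.01), of the liver list 1 (Apoa1 at -0.44), and of the skeletal muscle list 4, with 1 lower at an unadjusted p under 0.05 (Myh1; median -0.21). Fshb and Serpina1c had no count. Xist, the only gene tested of the list for sex, was at 0.10.

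Mice of the same diet differed more from each other than the diets did. The share of the squared distance among the 16 libraries that lay between the diets was 9.12%, where equal diet means would give 6.67% (exact permutation test over 12870 assignments, two-sided, p = 0.0862; the smallest p it can give is 0.000155). It was 12.2% without AL mouse 26 (exact permutation p = 0.0120) and 10.9% without IF mouse 38 (exact permutation p = 0.0432). With fewer libraries equal diet means give a share somewhat above 6.67%. The SD of log2 CPM among mice of a diet had a median over genes of 0.209, with 0.200 in AL and 0.204 in IF, and ran from 0.0815 at the 5th to 0.700 at the 95th percentile. In edgeR's terms the common biological coefficient of variation was 16.8%. The first 3 principal components held 21.0, 16.7 and 7.64% of the variance.

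Many of the genes that varied most between mice belong to the tissues named above. In 161 genes the SD exceeded 1 on the log2 scale. Ttr led with an SD of 3.03, and of the next genes Kl, the klotho coreceptor (1.74), Kcne2, a channel subunit (1.86), Prlr, the prolactin receptor (1.74), Clic6 (1.71), Folr1, a folate receptor (1.66) and Krt18 (1.58) were likewise highest in IF mouse 36 and next in IF mouse 34. Spink8, of the hippocampal list (1.55), and Ndst4 (1.56) were also highest in IF mouse 36. Six3, a transcription factor of the striatum (1.55), and Serpina9 (1.596) were highest in AL mouse 26 and next in IF mouse 35. Gm28438, in the chromosome 1 copy of mt-Nd3, had 403 CPM in AL mouse 27 and 255 in IF mouse 34, beside a median of 7.14 over the 16 mice (SD 2.10). Gapdh, often used as a reference gene, ran from 132 to 481 CPM in AL and from 20.8 to 379 in IF, and near-identical copies of it make this uncertain.

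The response to IF differed between female and male cortex in 81 of 19410 genes (0.417%), by the interaction of sex and diet in edgeR over 32 cortex libraries (Benjamini-Hochberg adjusted p under 0.05; 2444 at an unadjusted p under 0.05, 12.6%; DESeq2 297). In 50 the female value was below the male one and in 31 above it. Of the 81, 44 were positive in males and negative in females, 30 the reverse, and 7 had the same sign. Within each sex, 52 of them passed in males and 2 in females. The sexes were different sets of mice, 1 to 16 and 25 to 40, and sex cannot be told apart from anything else that separated these sets. With single female mice left out, and no male one, the count was 178 without AL mouse 26, 150 without AL mouse 28, 133 without IF mouse 38, 125 without IF mouse 40, 53 without AL mouse 27 or IF mouse 36, 48 without IF mouse 33, 45 without AL mouse 32, and 41 without AL mouse 31 or IF mouse 39.

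**Figure D4:**
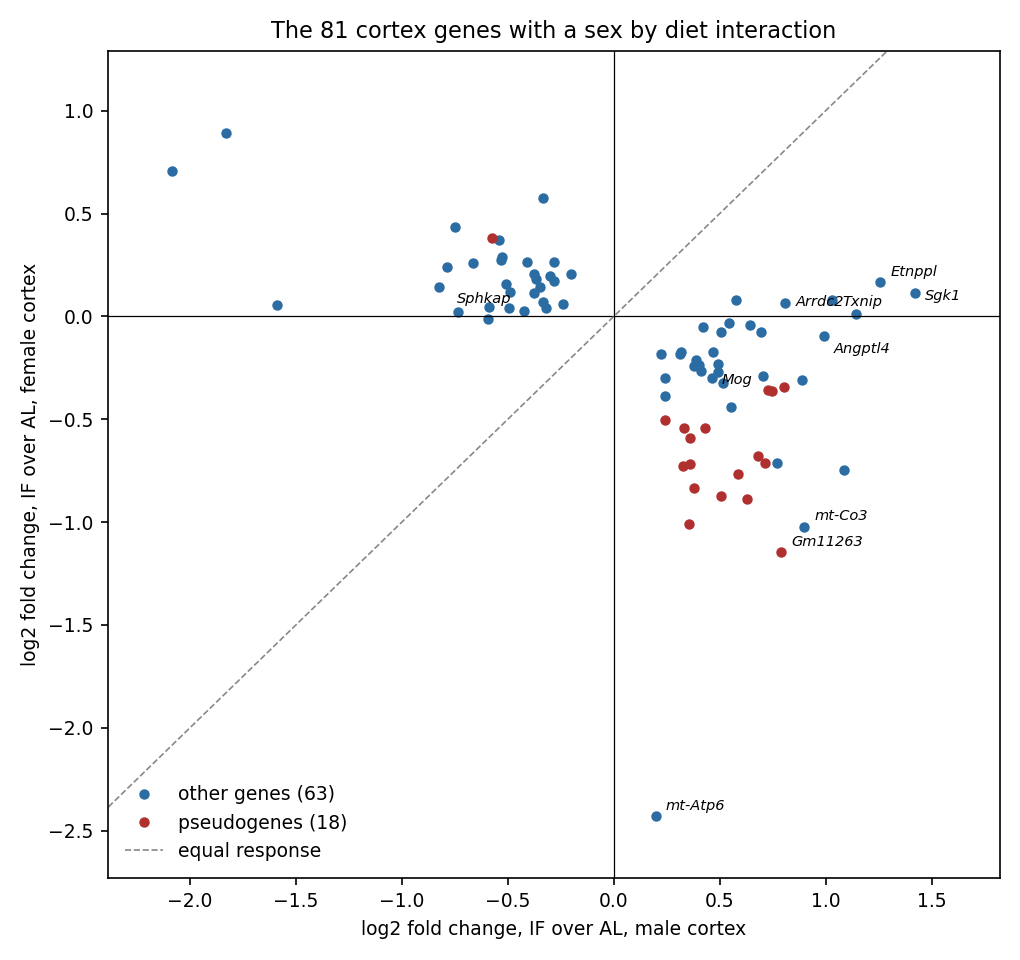
Log2 fold change of IF over AL in female against male cortex (8 mice per diet and sex) for the 81 genes with a sex by diet interaction, with the 18 pseudogenes in red and equal responses on the dashed line. The female value was below the male one in 50 genes and above it in 31.

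Txnip, which binds thioredoxin and curbs glucose uptake, was among the 6 genes with the lowest interaction p. In females it ran from 15.02 to 19.4 CPM in AL (median 18.6) and from 12.04 to 24.4 in IF (median 18.1), fully overlapping, with a log2 fold change of 0.08 (SE 0.109). In males it ran from 11.8 to 16.0 CPM in AL and from 18.3 to 33.2 in IF, without overlap, at 1.03. The difference was -0.95 (SE 0.159, edgeR adjusted p = 0.00462). Sphkap, an anchor of protein kinase A, was at 0.02 in females and -0.42 in males, a difference of 0.45 (edgeR adjusted p = 0.00639). The other 4 were pseudogenes: Gm11263 with a difference of -1.93 (edgeR adjusted p = 0.00027; female -1.15, male 0.79), Gm13394 with -1.52, Gm10036 with -1.38 and Gm48583, identical to part of Rbm3, with -1.11. In all, 18 of the 81 were pseudogenes, and in 17 of these the female value was below the male one. The share of pseudogenes among all genes of the interaction fit is not given here. In the female fit, 623 of 18403 genes were processed pseudogenes, the largest class of pseudogene. Whether pseudogenes were more frequent among the 81 was not tested.

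Gene groups described above recur among the 81, but their lists were chosen with earlier results of these data known. Their recurrence is therefore no independent result. Of the glucocorticoid-induced list 4 of 21 had an interaction: Sgk1 (female 0.11, male 1.42, difference -1.31), Arrdc2 (0.01 and 1.14, -1.13), Tsc22d3 (0.07 and 0.81, -0.74) and Ddit4 (-0.04 and 0.64, -0.68). The list median was 0.07 in females and 0.66 in males. Of the oligodendrocyte markers Mog (-0.30 and 0.46), Cldn11 (-0.23 and 0.49) and Cnp (-0.24 and 0.40) had one, and the list median was -0.23 in females and 0.43 in males. Striatal markers, which mark the tissue taken, had medians of -0.40 in females and 0.77 in males, and their part in the result was not tested. Etnppl, an astrocyte enzyme of phospholipid breakdown, stood at 0.17 and 1.26, a difference of -1.09 (SE 0.216, edgeR adjusted p = 0.0178). Its female value was -0.02 without IF mouse 34. In mitochondrial DNA, mt-Atp6 differed by -2.62, mt-Co3 by -1.92 and mt-Atp8 by -1.48. No core clock, immediate early or collagen gene had an interaction by edgeR.

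Of 29 genes picked from those that the study names for male cortex, 27 were tested in females. The study names more, and it reports changes in either direction, many of them in protein, so the counts and median below do not test its result. None passed edgeR's test or was called by DESeq2, 15 were positive and 12 negative, 3 were higher and none lower at an unadjusted p under 0.05, and the median was 0.02. Without IF mice 34 and 36, 11 were positive and the median was -0.02. Map2k1, a kinase upstream of ERK, had the lowest p, with 179 to 231 CPM in AL and 198 to 236 in IF, a log2 fold change of 0.16 (SE 0.0592, edgeR adjusted p = 0.375). For 3 of them the interaction passed: Txnip, Angptl4, a secreted inhibitor of lipoprotein lipase (female -0.09, male 0.99, difference -1.08), and Nrcam, a neuronal adhesion molecule (0.06 and -0.24, difference 0.30). The study named these genes from its male mice, and the interaction uses the male cortex libraries of this series. That choice favours a difference between the sexes, so these calls are no independent result.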

How the data were processed

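Total RNA of cortex was enriched for polyadenylated transcripts and made into strand-specific (dUTP) libraries, per the labels. The authors aligned the reads with HISAT2 to mm39 and counted them per gene; the annotation release, the strand setting and the treatment of reads that fit several places are not given in the sources used here. The deposited table holds raw counts of 56748 genes in 96 columns, and the 16 columns of female cortex were taken by their names.

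Counts were tested in edgeR 4.0.16 under R 4.3.3: filterByExpr (minimum count 10, minimum total 15), TMM scaling, robust quasi-likelihood test of diet, Benjamini-Hochberg adjustment over all genes tested, threshold 0.05. Every adjusted p is from that test unless DESeq2 1.42.0 is named. CPM and log2 CPM (prior count 2) use the same scaling, and TPM the gene lengths in the table. The steps were tested on simulated data first. The share between diets was tested by exact permutation. Sex by diet interactions used 32 cortex libraries. Pseudogenes and the nuclear copy were aligned to the GRCm39 genome with BLAST 2.17.0 under Python 3.11.15. Each library was counted as a replicate, and from their numbers the libraries are taken to be separate animals.

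Genes were named by these rules: in each direction, 12 genes that passed without overlap at 1 CPM or more in the higher diet, ordered by size and filled up by lowest adjusted p; of each of 21 pathway lists, members that passed and, except for GABA receptors, the member with the lowest p; 29 of the genes the study names for male cortex; the 10 genes with the highest TPM; the 15 with the largest SD; members of 20 marker lists; and 6 genes with the lowest interaction p. Other genes in the text were chosen after their values were seen. Members and lists were chosen with earlier results of these data known. All 533 list symbols were found in the table. Alternatives varied scaling, test, filter, threshold, dispersion, libraries in the fit, the replicate block, prior count and single mice.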

Additional observations from a re-analysis of the deposited data

Results flagged for a closer look

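A mouse far from the other 7 of its diet, or a response that differed between the sexes, marks the results here. Looked at were 258 groups of 8 values: library measures, marker sums and many genes of the text, each in AL and in IF. Of these, 27 held such a mouse, which is 10.5%. Chance alone marks about 1 in 20 unselected groups, that is 5%. Some genes here were named for their large spread or after their values were seen, and marker sums hold some of the same genes. The 5% is therefore no chance rate for this set.

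IF mouse 36 recurs. Its mean squared distance from the diet mean was 0.220, its hippocampal markers summed to 135 CPM, its ependymal markers to 36.4 and its pituitary markers to 8.98. Fibcd1, of the hippocampal list, was at 106 CPM in it, against at most 16.2 in the other IF mice. Rora was at 26.7 CPM and Gm48583 at 1.48, each the lowest of IF, and Gm28437 at 153, the highest.

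AL mouse 26 lay farthest from its diet mean, at 0.165, and was highest of AL for Smad3 (60.3 CPM), Baiap2 (314) and Tef (392). AL mouse 29 was lowest of AL for the activity-driven genes Fos (7.85 CPM) and Arc (114) and for Per2 (10.6). IF mouse 38 was lowest of IF for Gmip (11.04 CPM), Adam8 (5.69) and Col6a2 (27.9). IF mouse 40 was highest for mt-Co3 (93.3 CPM) and Plin4 (10.2), IF mouse 34 for Etnppl (30.3), IF mouse 33 for the olfactory bulb sum (93.7), AL mouse 25 for Gm28437 (606) and AL mouse 27 for Gm28438 (403). AL mouse 28 was lowest for the erythrocyte sum (78.1 CPM), AL mouse 31 for Kcnj13 (0.0898) and IF mouse 37 for Gm13436 (0.3798).

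The interaction of sex and diet in edgeR passed for 81 genes, 25 of which the text names. Of these, Nrcam (0.30) and Sphkap (0.45) had a higher value in females. The difference was negative for Gm11263 (-1.93), Gm13394 (-1.52), Gm10036 (-1.38), Rps27a-ps2 (-1.36), Gm13436 (-1.21), Gm48583 (-1.11), Gm9843 (-1.08), Gm10288 (-1.05), Rpl19-ps11 (-0.95) and Gm5559 (-0.74), all pseudogenes, and for mt-Atp6 (-2.62), mt-Co3 (-1.92) and mt-Atp8 (-1.48). It was also negative for Sgk1 (-1.31), Arrdc2 (-1.13), Etnppl (-1.09), Angptl4 (-1.08), Txnip (-0.95), Mog (-0.76), Tsc22d3 (-0.74), Cldn11 (-0.72), Ddit4 (-0.68) and Cnp (-0.64). Whether sex or another difference between these sets of mice underlies them cannot be told apart.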

How the results depend on the processing

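The 2 genes called by diet were 2 with RLE size factors, with at least 10 counts in each library and with a 1.5-fold minimum. Without a filter 2 were called, 1 of them among the 2. The count was 64 with DESeq2, 1 without robust estimation, 4 in 1 fit over 32 cortex libraries and 2069 at an unadjusted p under 0.05, and with single mice left out it ran from 0 to 254. Some alternatives were chosen after seeing the data. There the count was 1 without IF mice 34 and 36, 0 without mitochondrial genes and their copies (2060 at an unadjusted p under 0.05), 0 without pseudogenes (1975 at that level), and 2 with copy counts added.

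With the replicate number as a block the count was 0 (2329 at an unadjusted p under 0.05) and the share between diets 17.2% (exact permutation p = 0.102), which has another value under equal means than the share without a block. The numbers name different animals: correlations of same-numbered mice ran from -0.22 to 0.17, 2 of 8 were above 0.1, and 1 of 8 correlated best with its own number, so the mice are not paired.

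The share between diets was 8.70 to 9.40% with linear CPM, 500 genes or RLE, 10.8% without IF mice 34 and 36 (exact permutation p = 0.0773) and 8.47 to 12.2% with single mice left out. It passed the threshold without AL mouse 26 (12.2%) and IF mouse 38 (10.9%). With mice left out, equal diet means also give a higher share than with all 16. The 81 interaction genes were 80 with RLE, 297 with DESeq2, 2444 at an unadjusted p under 0.05, 37 without IF mice 34 and 36, and 41 to 178 with single female mice left out; male mice were not left out. The median SD of 0.209 was 0.209 with RLE, 0.210 with a prior count of 0.5 and 0.200 without IF mice 34 and 36.

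Over 5549 values of 207 named genes under these alternatives, 5443 were the same, 32 weaker, 52 stronger, 22 moved and 0 reversed. Only mt-Atp6 and Gm11263 had a call to lose, and all 32 weaker values are theirs: each was called in 10 of 26 alternatives. For a gene that did not pass in either fit, same means a shift of less than its SD among mice of a diet, whatever the sign. Such a value was never labelled reversed. In 189 of the 5549 values, over 64 genes, the sign of a gene that had not passed turned, and most of these count as the same. The 6 genes with the lowest interaction p kept sign and call in the 114 values run, none of which left out a male mouse.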

Other observations

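Some values of single mice belong to no comparison. Capn11, a calpain, had 13.2 CPM in AL mouse 28 and 7.09 in AL mouse 26, beside a median of 0.475 over the 16 mice. The erythrocyte markers summed to 78.1 CPM in AL mouse 28 and to at least 181.8 in every IF mouse. The reason was not tested.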
